A study of Homo sapiens with 2 samples.

Results

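Axon guidance ligands and receptors were compared between SAS cells and eSAS cells. The members were the genes whose symbol on the array named an ephrin or an Eph receptor, a semaphorin, a plexin or a neuropilin, a netrin or an UNC5 receptor, or a Slit or a Robo. There were 65 such genes with 108 probes, each spotted once, among 30484 gene names and 41000 probes on the array, and all 65 symbols are current ones. SAS is an established line from a human squamous cell carcinoma of the tongue, and eSAS is the population left after 5 rounds of selection of SAS cells for large spheroids on a removable mesh. Both were grown in the same serum-containing medium, the labels give no genetic change or drug for either, and RNA came from cells in log growth phase. Each population was measured on 1 array, both on 1 slide, so there was no replicate and no test between the cells was possible. The methods describe founding lines from single cells, and whether the arrayed eSAS cells descend from 1 cell is not settled by the labels.

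Axon guidance proteins steer growing nerve fibres by attraction and repulsion, and the same proteins act in epithelia, vessels and tumours. Ephrins are bound to the cell surface, by a lipid anchor in the A type and by a transmembrane segment in the B type, and signal to Eph receptor kinases on the neighbouring cell and back into their own cell. Semaphorins signal through plexins, the secreted class 3 members with the help of neuropilins. Slits are secreted ligands of Robo receptors, and netrins bind UNC5 receptors and DCC. In epithelia, Eph and ephrin contacts are known for keeping cell populations apart, and UNC5 receptors for promoting cell death when no netrin is bound.

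Signals are the scanner software's processed intensity in arbitrary units, with background removed. The 75th percentile of the probe spots was 1242 for SAS and 1196 for eSAS, and each ratio below was taken after dividing by it. For a probe that was well above background on 1 array only, the dim side was raised, where it lay under it, to the lowest signal that counted as well above background there (12.8 for SAS and 15.2 for eSAS), and the fold is then written as at least. Where the dim signal already lay above that limit, as for SEMA4G, SEMA3F and NRCAM, it was used as measured and the fold is called a plain ratio. The limit is the lowest over a whole array, and some probes above it did not count as well above background. A fold written as at least is therefore not a strict bound. The SD of the log2 ratio was 0.076 between spots that repeat a probe (214 probes) and 0.20 between probes of 1 gene (5334 genes). The error given after a log2 ratio is the scanner software's own error for the 2 spots, which ranged from 0.20 to 0.43 for the members. These errors leave out the variation between cultures and between hybridisations. All 14 squamous epithelial markers were well above background on both arrays. Of these, 5 (KRT5, KRT14, KRT16, PKP1 and SFN) were at least 1.5-fold lower in eSAS cells, beside 6.4% of 20865 genes on the array. The 2 KRT14 probes differed in size, at 95.4-fold and 2.35-fold lower. For KRT16, 1 of 2 probes was well above background on the SAS array only, and SFN was only just past 1.5-fold (log2 ratio -0.59).

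Of the 65 members, 46 were detected, meaning that a probe was well above background on 1 array or both, and 19 were not. By the mean over a gene's probes, 3 of the 46 were at least 1.5-fold higher in eSAS cells, where 4.74% of 20865 genes on the array were, and 10 were at least 1.5-fold lower, where 6.4% of all genes were. At 2-fold, 1 member was higher (2.04% of all genes) and 4 were lower (2.14% of all genes). The lower members were SLIT3, UNC5B, EFNB1, EFNB2, EFNB3, EPHA3, EPHB3, NRP2, SEMA3F and SEMA4G, and the higher members were ROBO4, SLIT2 and EFNA5. In bulk RNA, fewer cells that express a gene and less RNA per cell cannot be told apart. The median log2 ratio of the 45 members with a ratio was -0.18, with quartiles of -0.40 and 0.035, and over 20734 genes it was -0.0071, with quartiles of -0.16 and 0.14. Of these members 32 (71.1%) were below 0, and of all genes 51.4%. A gene that entered through 1 array only had to differ, so the counts were also taken over the 40 members with a probe well above background on both arrays: 7 were at least 1.5-fold lower, beside 4.99% of 19467 genes under the same restriction, and 2 were higher, beside 3.19%. The median was -0.18 for these members and -0.0012 for those genes.

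**Figure D1:**
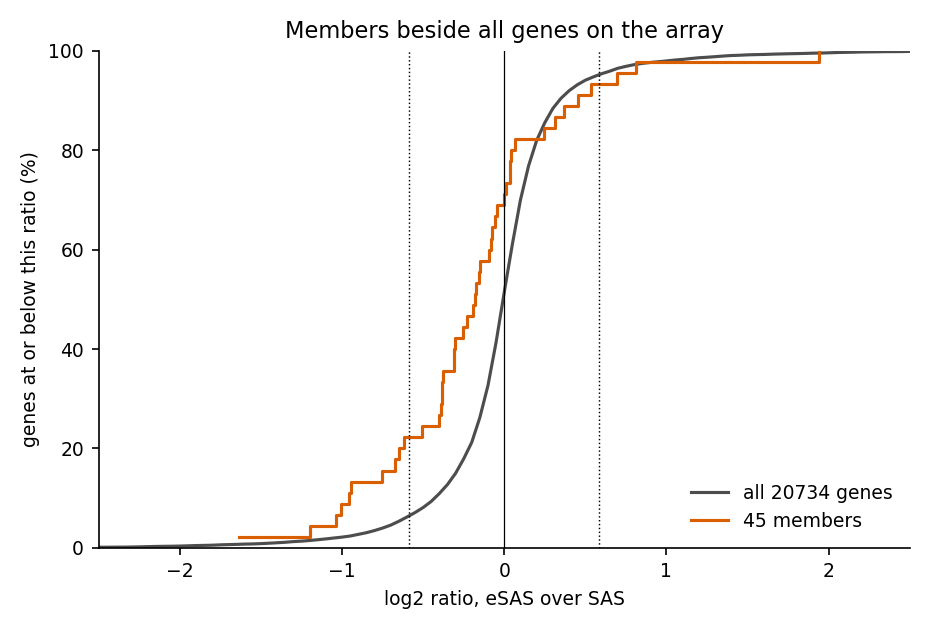
Cumulative share of genes (%, vertical axis) at or below each log2 ratio of eSAS over SAS (horizontal axis), for all 20734 genes with a ratio and for the 45 members; dotted lines mark 1.5-fold. The members' curve lies to the left of that of all genes at both quartiles and at the median, which was -0.18 for members and -0.0071 for all genes.

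Most members gave low signals, and low signals spread more. Of the 46 members, 29 lay below the median gene in signal, and 9 of these were lower and 3 higher by at least 1.5-fold, beside 9.77% and 8.28% of all genes below that median. Of the 17 members above it, 1 was lower and 0 were higher, beside 3.03% and 1.19% of all genes above it. The member of that brighter set was EFNB1.

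**Figure D2:**
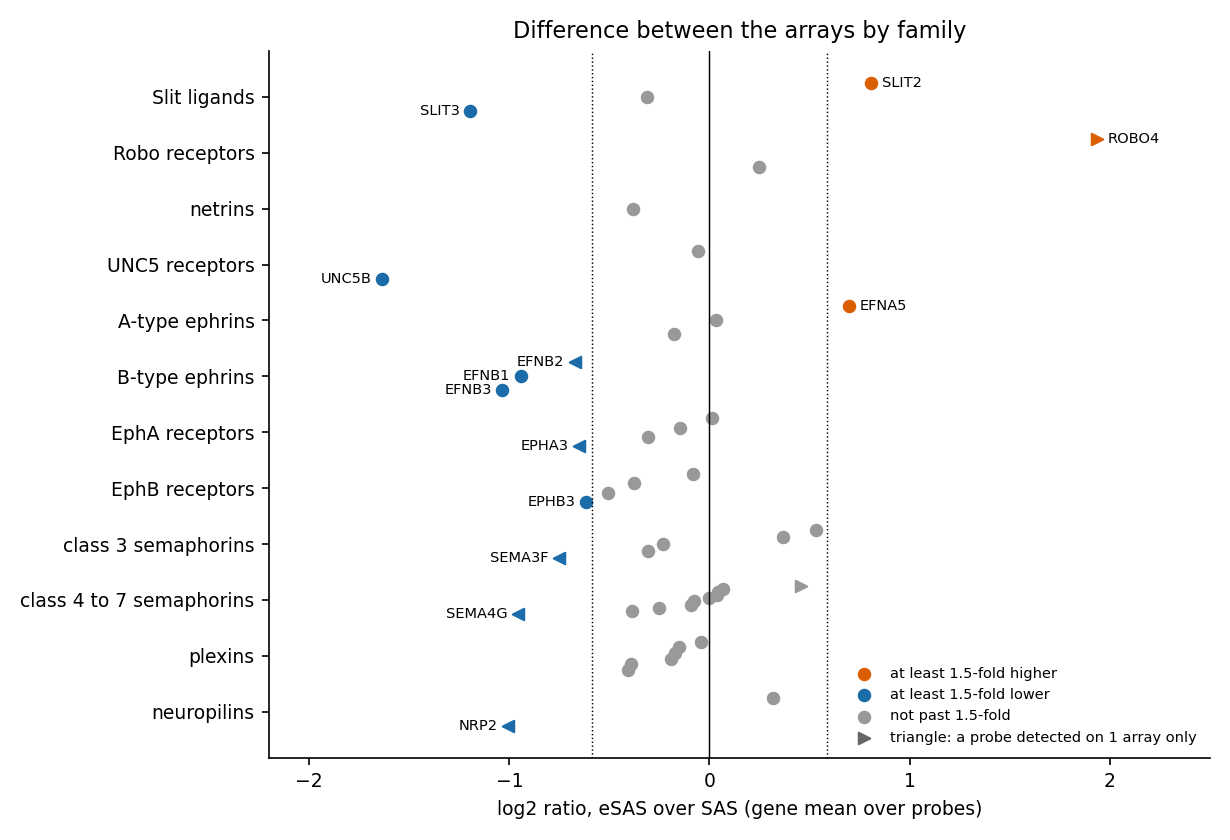
Log2 ratio of eSAS over SAS (horizontal axis) for each member gene with a ratio, as the mean over its probes, by family (vertical axis); triangles are genes with a probe that was well above background on 1 array only and dotted lines mark 1.5-fold. All 3 B-type ephrins lie at -0.67 or below, all 6 plexins lie between the dotted lines, and ROBO4 is farthest to the right at 1.94.

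The Slit ligands differed from one another. SLIT3 had the largest difference among member probes well above background on both arrays. Its first probe, which targets the RefSeq transcript at chr5:168025945-168026004 of hg18, gave 1011 in SAS cells and 147 in eSAS cells. This was a 6.61-fold lower signal (log2 ratio -2.73 ± 0.21). The second SLIT3 probe, at chr5:168112413-168112472 on the same strand, gave 19.9 and 24.2, a log2 ratio of 0.33 ± 0.43. The array does not list it under a curated RefSeq mRNA, and which exon or isoform either probe detects is not known here. That probe was close to the limit of detection on both arrays, and the mean of both probes was -1.20. SLIT2 (chr4:20229530-20229589) went from 188 to 317, 1.75-fold higher (0.81 ± 0.21). SLIT1 had 1 of its 2 probes well above background, with 111 and 86.0, a log2 ratio of -0.31. SLIT2 was thus higher and SLIT3, at its RefSeq probe, lower in eSAS cells.

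Of the 4 Robo receptor genes, ROBO4 alone was well above background in eSAS cells and not in SAS cells. ROBO4 is best known from endothelial cells, where it stabilises the vessel wall. Its probe at chr11:124261572-124261631 gave 7.73 in SAS cells and 41.9 in eSAS cells, at least 3.39-fold higher. Its other probe, at chr11:124259466-124259525, gave 9.17 and 53.5, at least 4.33-fold higher. Both probes entered through the eSAS array only, so they had to be higher. They lay in rows 380 and 323 of the array. By the mean over both probes the log2 ratio was 1.94, and it was 1.31 from median in place of mean pixels. It was 0.80 without background correction and 0.10 with a normexp background correction on all spots. Of the 5 endothelial markers, VWF was well above background on both arrays (85.9 and 77.0), CDH5 on the SAS array only (17.0 and 6.88), and PECAM1, KDR and TEK on neither. ROBO3, which in neurons weakens the response to Slit, had 3 probes that differed in their ratio: 395 and 598 at the first (0.65), 56.0 and 68.1 at the second (0.34), and 27.5 and 22.4 at the last (-0.25). ROBO1 and ROBO2, the main Slit receptors in neurons, were not well above background at any of their 5 probes on either array.

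For the Slit and Robo genes that differed most, the 250 bases before the transcript start are shown, because a SLIT3 probe was 6.61-fold lower and both ROBO4 probes were over 3-fold higher in eSAS cells. They come from RefSeq (GRCh38.p14), SLIT3 from chr5:169301140-169301389 on the minus strand and ROBO4 from chr11:124897866-124898115 on the minus strand, written 5′ to 3′. Capitals mark matches on either strand to the GC box, spelled GGGCGG. They also mark the CCAAT box, spelled by its name, and the TATA box, spelled TATAAA. A GC box can share bases with a CCAAT box on the other strand, but no matches shown overlap.
SLIT3: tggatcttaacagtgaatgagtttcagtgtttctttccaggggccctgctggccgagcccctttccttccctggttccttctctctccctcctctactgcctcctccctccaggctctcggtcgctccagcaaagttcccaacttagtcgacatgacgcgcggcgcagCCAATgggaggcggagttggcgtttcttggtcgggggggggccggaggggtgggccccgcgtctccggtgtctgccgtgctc
ROBO4: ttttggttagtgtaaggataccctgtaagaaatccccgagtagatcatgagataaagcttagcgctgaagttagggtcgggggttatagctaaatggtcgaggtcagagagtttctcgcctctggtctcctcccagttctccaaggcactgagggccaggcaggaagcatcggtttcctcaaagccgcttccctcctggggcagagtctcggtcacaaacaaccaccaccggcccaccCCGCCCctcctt
The SLIT3 window held 1 CCAAT box and no other match, and the ROBO4 window held 1 GC box. These are matches of letters, and nothing measured here bears on binding at them.

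UNC5B, a netrin receptor that promotes cell death when it is unbound, had the lowest log2 ratio by the mean over probes among members well above background on both arrays. Its probe at chr10:72729603-72729662 gave 343 in SAS cells and 106 in eSAS cells, 3.1-fold lower (-1.63 ± 0.21). UNC5A gave 50.4 and 46.7, a log2 ratio of -0.056. UNC5C and UNC5D were not well above background on either array. The ligand NTN4, a netrin of basement membranes, went from 3923 to 2896, 1.30-fold lower (-0.38), and NTN1, the classical netrin, was not well above background on either array (17.9 and 7.64). UNC5B was therefore the only one of the 4 UNC5 genes past 1.5-fold on these arrays.

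All 3 B-type ephrins were lower in eSAS cells by the mean over their probes. EFNB1 (chrX:67978558-67978617) had the brightest signal among the members that passed 1.5-fold, 5868 in SAS cells and 2939 in eSAS cells, 1.92-fold lower (-0.94 ± 0.20). EFNB2, whose product is the ligand of EphB4 in vessels, gave 554 and 289 at its brighter probe, chr13:105940737-105940796, 1.85-fold lower (-0.88 ± 0.20). The dimmer EFNB2 probe, chr13:105941630-105941689, gave 21.7 and 10.9 and was well above background on the SAS array only, at least 1.38-fold lower. The probes of EFNB3 disagreed. At chr17:7554848-7554907 the signal was 84.4 and 18.5, 4.4-fold lower (-2.14 ± 0.31), whereas at chr17:7552073-7552132 it was 464 and 468, a log2 ratio of 0.067 ± 0.20. The mean over both, -1.04, rests on the dimmer probe.

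EFNB1 and EFNB2 moved in the same direction by a similar size, and the 250 bases before their starts are shown for this reason, from RefSeq (GRCh38.p14) at chrX:68828771-68829020 on the plus strand and chr13:106535663-106535912 on the minus strand, with the same motifs in capitals.
EFNB1: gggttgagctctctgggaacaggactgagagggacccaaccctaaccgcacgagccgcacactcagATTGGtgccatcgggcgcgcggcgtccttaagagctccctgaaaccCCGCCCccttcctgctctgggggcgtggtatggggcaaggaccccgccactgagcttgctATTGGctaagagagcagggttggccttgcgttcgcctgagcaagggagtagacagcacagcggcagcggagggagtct
EFNB2: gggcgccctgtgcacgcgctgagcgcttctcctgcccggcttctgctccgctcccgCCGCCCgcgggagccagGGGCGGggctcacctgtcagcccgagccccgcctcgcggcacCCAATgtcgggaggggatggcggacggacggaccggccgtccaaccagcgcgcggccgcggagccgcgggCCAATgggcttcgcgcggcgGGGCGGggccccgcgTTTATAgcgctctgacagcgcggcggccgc
The EFNB1 window held 1 GC box and 2 CCAAT boxes, and the EFNB2 window held 3 GC boxes, 2 CCAAT boxes and 1 TATA box. In G and C content they were 63.6% and 78.4%, where the median was 65.4% over the member promoters and 58% over all promoters. Promoters were found for 56 of the 65 members, with 88 starts. With that difference in G and C content, a GC box was present in 71.6% of these and in 42.6% of the 35116 promoters in the table, and a CCAAT box in 29.5% and 32%. A TATA box was present in 3 of the 88 and in 3763 of the 35116.

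The A-type ephrins did not all share this direction: of the 3 with a ratio, 2 were above 0 and 1 was below. EFNA5 was higher in eSAS cells at both probes: 66.1 and 117 at chr5:106744318-106744377 (1.83-fold, 0.88 ± 0.22), and 313 and 432 at chr5:106742004-106742063 (1.43-fold, 0.52 ± 0.20). EFNA1, an ephrin that tumour necrosis factor induces, went from 11621 to 9947 at its brighter probe, a log2 ratio of -0.17, and EFNA4 gave 583 and 575 (0.035). EFNA3 was well above background on the SAS array only, at 15.8 against 11.9, and has no fold because its signal was at the limit. EFNA2 was not well above background on either array.

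Of the 14 Eph receptor genes, 8 were detected, with a median log2 ratio of -0.34, and 7 of these 8 were below 0. Over all genes 51.4% were below 0. EPHA3, which is among the 7, entered through the SAS array only, so its ratio had to be below 0. EPHB3, a receptor of B-type ephrins, gave 101 and 63.2, 1.53-fold lower (-0.62 ± 0.22), just past 1.5-fold, and EPHB6, a receptor without kinase activity, gave 979 and 665, 1.42-fold lower (-0.50), just short of it. EPHB2 gave 465 and 345 (-0.38), and EPHB4 gave 251 and 228 (-0.082). EPHA2, the Eph receptor best known from epithelial tumours, was nearly equal on both arrays at 643 and 624 (0.010). EPHA4 was lower at all 3 probes, with log2 ratios from -0.37 to -0.24, and EPHA1 gave 200 and 174 (-0.15). EPHA3 rested on 1 of its 3 probes, chr3:89613551-89613610, at 24.8 and 3.45, at least 1.57-fold lower, while its other probes were not well above background on either array. EPHA5, EPHA6, EPHA7, EPHA8, EPHA10 and EPHB1 were not well above background on either array.

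**Figure D3:**
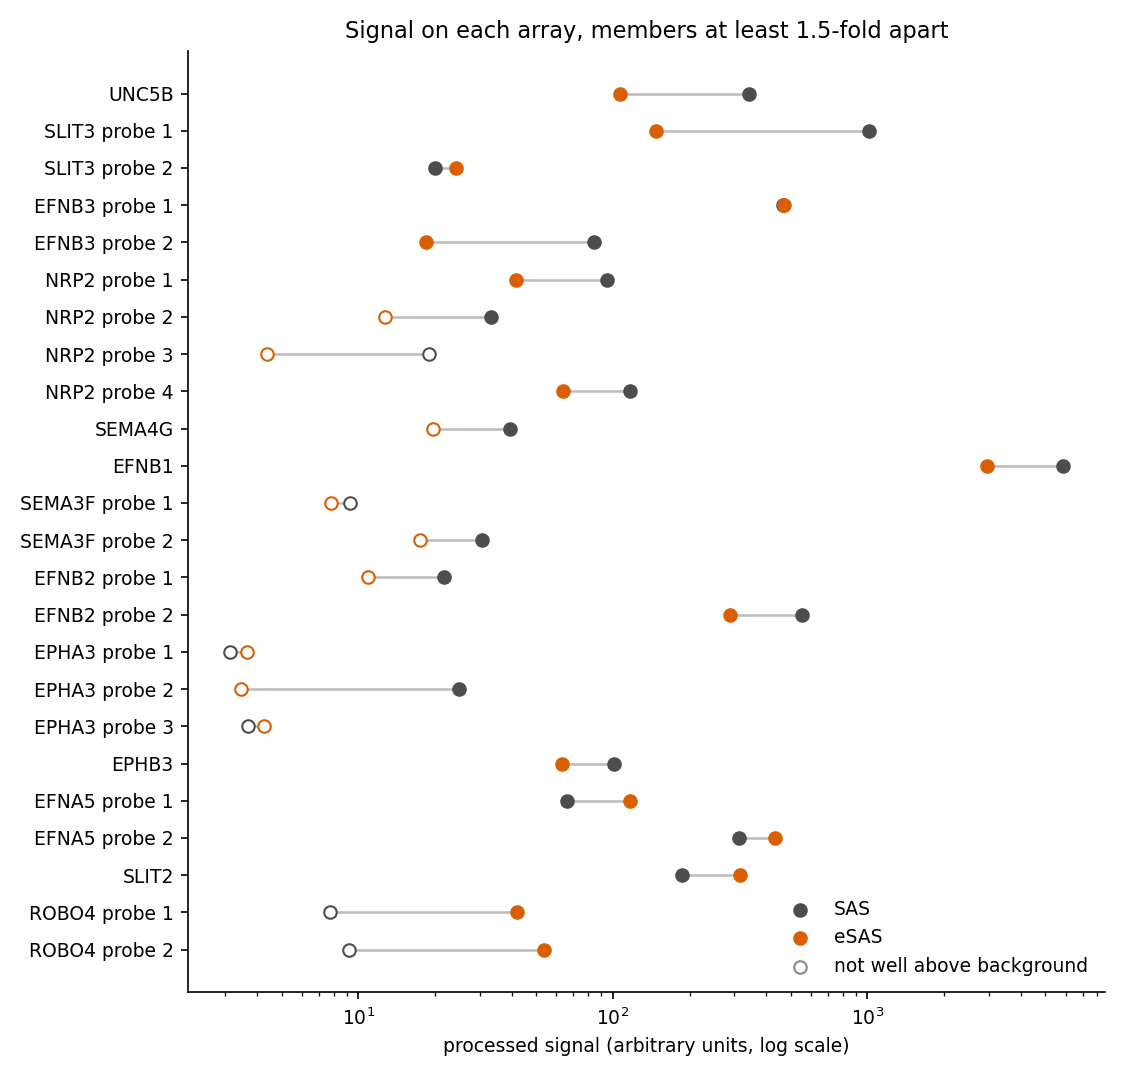
Processed signal in arbitrary units (horizontal log axis, before scaling between the arrays) on the SAS and the eSAS array for every probe of the 13 members at least 1.5-fold apart; open circles were not well above background. EFNB1 is brightest, at 5868 and 2939, and the ROBO4 probes are open on the SAS array and filled on the eSAS array.

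The neuropilins, which are co-receptors of class 3 semaphorins and of vascular endothelial growth factor, differed in opposite directions. NRP2 gave 94.4 and 41.8 at chr2:206370010-206370069 (2.18-fold lower, -1.12 ± 0.24) and 117 and 63.7 at chr2:206316325-206316384 (1.77-fold lower, -0.82 ± 0.23). A further probe, chr2:206367948-206368007, gave 33.3 and 12.8 and was at least 2.11-fold lower, and the last one was not well above background on either array. The NRP2 probes that could be used thus gave ratios of one sign, with a mean of at least 2.01-fold lower. NRP1 was higher at all 3 probes that were well above background, at 142 and 165, 1546 and 1821, and 805 and 1010. Its log2 ratios lay between 0.27 and 0.38, within 1.5-fold.

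Of the 7 class 3 semaphorins, 5 were measured and 1 passed 1.5-fold. SEMA3F, the secreted ligand that prefers neuropilin-2, was well above background on the SAS array only at 1 of 2 probes (chr3:50200231-50200290), at 30.5 and 17.4, a plain ratio of 1.68-fold lower. With both its probes and no filter the log2 ratio was -0.47. SEMA3A, which prefers neuropilin-1, was higher at both probes, 1772 and 2334 at the first (0.45) and 415 and 487 at the second (0.29). SEMA3E, a ligand of plexin-D1, gave 407 and 567, 1.45-fold higher (0.53). SEMA3B had the brightest probe of the semaphorins, at 23263 and 17476 (-0.36), and SEMA3C gave 1881 and 1543 (-0.23). SEMA3D and SEMA3G were not well above background on either array.

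Of the 13 membrane-bound semaphorins of classes 4 to 7, 10 were detected, of which 8 lay within 1.5-fold, SEMA4G was lower and SEMA5A had only a bound. SEMA4G (chr10:102735214-102735273) gave 39.4 and 19.6, well above background on the SAS array only, a plain ratio of 1.94-fold lower. Its spot lies in row 509, among rows 466 to 512, which held 175 of the 194 spots that the software marked on the SAS array; the SEMA4G spot itself was not marked, and the part of this region in its ratio was not tested. From median in place of mean pixels its log2 ratio was -0.26. SEMA5A was well above background on the eSAS array only, at 2.90 and 16.9, at least 1.37-fold higher, and its log2 ratio was 0.79 from median pixels and 2.60 when the dim side was not raised. SEMA4C gave 8687 and 9043 at its brighter probe (0.11), SEMA7A gave 519 and 498 (-0.0027), and SEMA4D, the ligand of plexin-B1, gave 125 and 101 (-0.25). The others, SEMA4A, SEMA4B, SEMA4F, SEMA6B and SEMA6C, lay between -0.38 and 0.069. SEMA5B, SEMA6A and SEMA6D were not well above background on either array.

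The plexins, the signalling receptors for all semaphorin classes, stayed within 1.5-fold. All 6 measured plexin genes were below 0 by the mean over their probes, from -0.40 for PLXNA1 to -0.043 for PLXNB2, beside 51.4% of all genes. The software error of a single probe was at least 0.20, so the smaller of these ratios lie within it. PLXNA1 gave 20212 and 13717 at its brighter probe (-0.50), PLXNA3 was 1.31-fold lower (-0.39), and PLXNB2 gave 3576 and 3277 at its brighter probe (-0.072). PLXNB1 gave 289 and 247 (-0.17). PLXNA2 had a mean of -0.15 over 2 probes, with 1733 and 1693 at the brighter (0.020) and 202 and 155 at the dimmer (-0.33). PLXND1, the receptor of SEMA3E, gave 628 and 529 (-0.19). PLXNB3 and PLXNC1 were not well above background on either array.

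The wider pathway was followed with 61 partners and effectors of these receptors. Of the 54 that were detected, 7 (13%) were at least 1.5-fold lower in eSAS cells, beside 6.4% of all genes. In the other direction 0 were higher, beside 4.74%, and the median log2 ratio was -0.12. NRCAM and DCC entered through the SAS array only, so they had to be lower, and FEZ1 passed 1.5-fold only through such a probe. DPYSL3, NTNG2, CAP2 and NGEF passed it at probes well above background on both arrays. Of the 7, 2 were also past 2-fold, and both belong to the semaphorin side. NRCAM, an adhesion molecule that partners neuropilin-2, gave 54.8 and 16.1, well above background on the SAS array only, a plain ratio of 3.29-fold lower. DPYSL3, a microtubule-binding protein of the collapsin response family, gave 240 and 42.6 at its brighter probe, 5.43-fold lower, and at least 1.22-fold lower at the other. On the netrin side, DCC, the attractive netrin receptor, gave 24.9 and 3.47 (at least 1.58-fold lower), and the netrin-G gene NTNG2 gave 109 and 56.4 (1.86-fold lower). FEZ1, an axon outgrowth protein, gave 79.9 and 60.6 at one probe (1.27-fold lower) and was at least 2.04-fold lower at the other. CAP2, an actin-binding protein, gave 205 and 116 (1.71-fold lower). NGEF, the exchange factor ephexin that Eph receptors act on, gave 1610 and 814 (1.90-fold lower). Common signalling partners such as NCK1 (log2 ratio 0.037), CFL1 (-0.015) and ADAM10 (-0.035) were nearly equal on both arrays.

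Neurons use many of these genes, so neuronal markers were checked. Of 8 neuronal markers, 4 were well above background in SAS cells and 3 in eSAS cells. SYT1 gave 104 and 111, MAP2 gave 61.2 and 54.4 and SYN1 gave 6500 and 5320, and STMN2 gave 26.9 and 18.8, with all 4 within 1.5-fold. RBFOX3, SNAP25, GAP43 and ELAVL4 were not well above background on either array. Of 7 fibroblast markers 3 were detected, while COL1A2, COL3A1, DCN and PDGFRB were not. LUM gave 3.21 and 29.6 (at least 2.4-fold higher in eSAS cells), and THY1 gave 2670 and 2560 (log2 ratio -0.0071). COL1A1, at 14.6 and 5.38, was well above background on the SAS array only and has no fold. The part of other cell types in the members' ratios was not tested.

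Most of these ratios were smaller under other background corrections. Without background correction, 5 of the 13 members stayed past 1.5-fold (UNC5B at -1.31, SLIT3 at -1.11, EFNB1 at -0.94, ROBO4 at 0.80 and SLIT2 at 0.72). With a normexp correction on all spots, an added offset of 50 and quantile normalization, 1 did, EFNB1 at -0.87. Over the 15 settings that give gene values, 12 of the 13 kept the sign of their ratio wherever they had a value, and the exception was EFNB3. EPHB3 lay just within 1.5-fold when the arrays were centred on the median (-0.58) or quantile normalized (-0.58), and at -0.51 from median pixels.

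**Figure D4:**
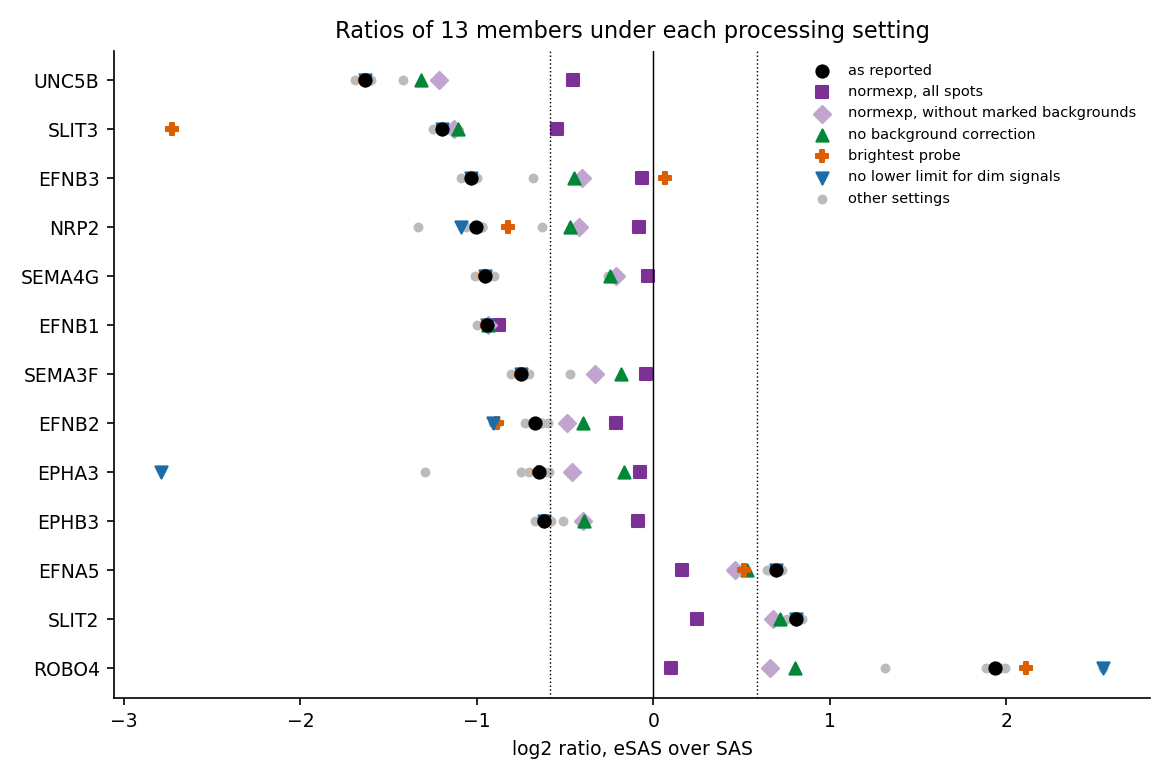
Log2 ratio of eSAS over SAS (horizontal axis) of the 13 members at least 1.5-fold apart (vertical axis) as reported and under each other processing setting; dotted lines mark 1.5-fold. EFNB1 stays past 1.5-fold under all 15 settings that give gene values, whereas the dim members shrink towards 0 under normexp with all spots, and EFNB3 lies at 0.067 by its brightest probe.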

How the data were processed

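Total RNA of SAS and eSAS cells was labelled with Cy3 and hybridised to 1 whole human genome array each. The authors deposited the output of Agilent Feature Extraction 10.7.3.1, whose intensity values are linear; the software had subtracted the background and removed spatial trends within each array, with no scaling between arrays. A value table of the whole series equalled the processed signal at 100% of spots. How the authors scaled or filtered for their own fold changes is not given in the sources used here.

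The log2 of the processed signal less each array's 75th percentile was used. Spots that the software marked as non-uniform or as outliers among their repeats were dropped; no member spot was marked or saturated. Probes of a gene, by the array's gene name, were averaged over those well above background on at least 1 array. Partners and markers were matched through RefSeq accessions or symbols. A list of leukocyte markers is not reported here. Named were members past 1.5-fold at any probe, detected on 1 array only or with probes over 1.5-fold apart, partners past 1.5-fold, and up to 3 members per family with ratios near 1; the other members and partners were named after their values were seen, so that each member of interest is accounted for. The members and lists were chosen with earlier results of these data known. No test was made, since 1 array per population leaves no residual degrees of freedom. Probe positions are as the array's annotation gives them (hg18). The counting was tested on simulated data, with folds set only in genes far above the limit of detection and with detection alike on both arrays. That simulation did not cover probes well above background on 1 array only, or folds in dim genes. Results were computed in Python 3.11.15 and, for normexp (offset 50, then quantile normalization), in R 4.3.3 (limma 3.58.1), and repeated under 16 alternative settings.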

Additional observations from a re-analysis of the deposited data

How the results depend on the processing

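No paired analysis was possible because each cell population has 1 array; for the same reason no replicate could be left out, and the slide could not be a block. The reported counts were 3 members higher and 10 lower at 1.5-fold, 1 higher and 4 lower at 2-fold, and the median was -0.18. They stayed within 1.5 times, and the median moved by less than the SD between repeated spots, with unscaled arrays, median centring, quantile normalization, the 75th percentile over detected probes, median pixels, the series table, marked spots kept and the rows of marked spots left out. That last setting leaves SEMA4G without a value.

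With normexp on all spots, 0 were higher and 1 was lower at 1.5-fold, 0 and 0 at 2-fold, and the median was -0.039, while all genes past 1.5-fold went from 988 higher and 1335 lower to 66 and 153. With normexp fitted without spots with a marked local background, 3 were lower at 1.5-fold, and at 2-fold 0 were higher and 2 lower; with no background correction these were also 3, 0 and 2, and the genes past 1.5-fold lower were 551 and 581, in this order. With probes well above background on both arrays only, there were 0 higher at 2-fold, since ROBO4 had no value. With no filter and no lower limit, 7 were higher at 1.5-fold, 3 were higher and 7 lower at 2-fold, and the median was -0.077, while 2080 genes were higher and 2589 lower at 1.5-fold; without the lower limit alone, 2 were higher at 2-fold. Counting probes gave 5 higher at 1.5-fold and 2 at 2-fold. By the brightest probe of a gene, 2 were lower at 2-fold, EFNB3 was reversed at 0.067 and SLIT3 was at -2.73. The cause was not tested. Of the values of single named members under these settings, 151 were within the SD between repeated spots of the reported one, 67 moved by more, and 1 (EFNB3) reversed. Signal close to background limits EPHA3, SEMA3F, SEMA4G, SEMA5A, ROBO4 and the dimmer probes of NRP2, EFNB2, EFNB3 and SLIT3.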

Other observations

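The array names 3 relatives of the members by older symbols that the symbol rule does not take in. NTN2L, a netrin, gave 60.5 in SAS cells and 56.0 in eSAS cells. PLXNA4A, a plexin, had 3 probes, of which 1 was well above background on the SAS array only, at 16.3 and 4.56. PLXNA4B was not well above background on either array, at 3.22 and 5.17.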
